A study of Oryza sativa Japonica Group and Oryza sativa with 4 samples.

Results

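The genes described here were 8 rice JAZ genes, named by their RAP-DB identifiers Os03g0180800, Os03g0180900, Os03g0181100, Os03g0402800, Os07g0615200, Os09g0439200, Os10g0391400 and Os10g0392400. They were taken as a list of identifiers, chosen with earlier results of these data known, from a table of 37849 genes, and all 8 were found in it. JAZ proteins carry a TIFY domain and repress jasmonate signalling in plants. Without the hormone they bind transcription factors such as MYC2 and hold their target genes off, with co-repressors recruited through the TIFY domain. When jasmonoyl-isoleucine accumulates, for instance after wounding or insect attack, the F-box receptor COI1 binds the JAZ proteins and marks them for degradation. The transcription of many JAZ genes is itself switched on by jasmonate, so that the repressors are made again while the response is running. In the deposited descriptions Os09g0439200 is a jasmonate ZIM-domain protein that represses jasmonic acid signalling, Os03g0180800 is a TIFY regulator linked to salt and dehydration tolerance, and the others are named only as TIFY domain proteins.

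Leaf RNA came from seedlings of 2 lines at 21 days after germination, with green rice leafhopper (GRH) or without. Ilpum is a japonica cultivar that is susceptible to GRH. The near-isogenic line (NIL) carries the resistance gene Grh1 in an Ilpum background, from a cross with the indica cultivar Shingwang. Infested seedlings were kept with nymphs in the second instar for 48 h, and controls had no insects. Values of 1 library were deposited for each of the 4 conditions. No difference between conditions therefore has a replicate check, and no p-value is given. NIL was used as a single line, so other segments from Shingwang cannot be told apart from Grh1. Where 4 values are given in a row, they stand for Ilpum and then NIL, with the control before GRH in each line.

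The libraries held 894661 to 5037081 reads on genes. Controls were deeper than infested libraries, 2.37 times in Ilpum and 4.3 times in NIL, and the part of this in the results was not tested. The 8 JAZ genes had 12 to 2095 reads each in a library. Among 21 leaf genes (photosynthesis genes found by their descriptions), the summed level was 29902 FPKM in the Ilpum control but 16248 FPKM under infestation, and for NIL 21949 and 7141 FPKM. Of the 15 of these genes at a mean of 1 FPKM or more, 13 were lower with GRH in Ilpum (median log2 difference −1.08) and 15 in NIL (−2.14). The root gene looked for had 0 reads in all 4 libraries. Glutelin genes of the seed, 21 in all, had summed levels of 377 to 873 FPKM, with reads on 7 to 19 of them. Whether these shifts have a part in the JAZ values was not tested, and in whole leaves fewer cells of a type cannot be told apart from less RNA per cell.

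Levels are given as FPKM, fragments scaled to transcript length and sequencing depth, which can be compared between genes. The response to GRH is log2 of (FPKM + 1) with GRH over (FPKM + 1) in the control of the same line, so a response of 2 stands for a 4-fold difference. Responses of the JAZ genes are followed by an exact 95% interval for the ratio of reads, with no pseudocount, and values given without an interval have no stated error. This interval covers counting error only, takes every read as independent, and says nothing of the spread between plants.

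Os03g0402800, with 5 exons on chromosome 3 (IRGSP-1.0, 16407695 to 16410007, minus strand), was the most abundant of the 8 genes in every library. The Ilpum pair of libraries held 408 and 948 FPKM, without and with GRH (1062 and 1070 reads), and the NIL pair 339 and 506 FPKM (2095 and 728 reads). It was higher with GRH in both lines, and its level with GRH was higher in Ilpum than in NIL. The response was 1.21 (1.09 to 1.34) in Ilpum, against 0.58 (0.45 to 0.70) in NIL.

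Os07g0615200, with 5 exons on chromosome 7 (25348060 to 25350242, plus strand), moved up in the order of the JAZ genes with GRH. Without and with the insect, the gene reached 90.3 and 447 FPKM in Ilpum (264 and 566 reads) against 79.3 and 289 FPKM in NIL (549 and 466 reads). Ranked by level it went from place 5 to place 2 with GRH in Ilpum, and in NIL from place 4 to place 2. The response was 2.30 (2.09 to 2.52) in Ilpum, against 1.85 (1.68 to 2.04) in NIL.

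Os09g0439200, the gene described as a repressor of jasmonic acid signalling, has 5 exons on chromosome 9 (16273522 to 16275268, minus strand). Both controls were at the same low level, 15.2 FPKM in Ilpum and 15.2 in NIL, from 40 and 94 reads. With GRH it reached 107 FPKM in Ilpum and 137 in NIL, from 122 and 197 reads. The response was 2.74 (2.29 to 3.37) in Ilpum, against 3.09 (2.81 to 3.54) in NIL. It was the only one of the 8 genes whose response was the larger in NIL by value. The counting interval of the difference, 0.35 (−0.32 to 1.0), included 0.

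The next 3 genes lie side by side on chromosome 3 within 17.8 kb, with 0 other annotated genes between them. Os03g0180800 (4232004 to 4233038, minus strand) has a single exon and was the least abundant JAZ gene in both controls. In Ilpum it was at 7.85 FPKM without GRH and 127 FPKM with it (18 and 126 reads), and in NIL at 2.21 and 31.6 FPKM (12 and 40 reads). Its response was 3.86 (3.30 to 4.82) or 14.5-fold in Ilpum and 3.35 (2.88 to 4.90) or 10.2-fold in NIL. It was the largest of the 8 with 1 FPKM added, but its interval overlapped that of Os09g0439200 in both lines. With 5 FPKM added the order turned in NIL, at 2.35 against 2.81. With so few reads in the controls, these intervals are among the widest.

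Os03g0180900 (4236724 to 4238058, plus strand) has 3 exons and was the JAZ gene at place 2 in both controls. The Ilpum pair of libraries held 159 and 402 FPKM, without and with GRH (389 and 428 reads), and the NIL pair 200 and 278 FPKM (1161 and 378 reads). The response was 1.34 (1.14 to 1.55) in Ilpum, against 0.48 (0.31 to 0.65) in NIL. Os03g0181100 (4248884 to 4249820, plus strand) has 2 annotated transcripts, each of a single exon. Without and with the insect, the gene reached 109 and 399 FPKM in Ilpum (204 and 335 reads) against 69.9 and 151 FPKM in NIL (309 and 156 reads). The response was 1.86 (1.67 to 2.18) in Ilpum, against 1.10 (0.83 to 1.40) in NIL.

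The last 2 genes lie on the minus strand of chromosome 10 within 39.7 kb, with 2 other annotated genes between them. Os10g0391400 (13031180 to 13032006) has a single exon. In Ilpum it was at 14.9 FPKM without GRH and 78.9 FPKM with it (28 and 63 reads), and in NIL at 14.9 and 21.8 FPKM (65 and 22 reads). The controls of the lines were at the same level, and Ilpum GRH was the highest library. The response was 2.33 (1.71 to 3.07) in Ilpum, against 0.52 (−0.23 to 1.25) in NIL, where the interval includes 0. Os10g0392400 (13069770 to 13070894) has 2 exons. The Ilpum pair of libraries held 97.9 and 281 FPKM, without and with GRH (200 and 249 reads), and the NIL pair 105 and 196 FPKM (509 and 222 reads). The response was 1.51 (1.25 to 1.80) in Ilpum, against 0.89 (0.67 to 1.13) in NIL.

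**Figure D1:**
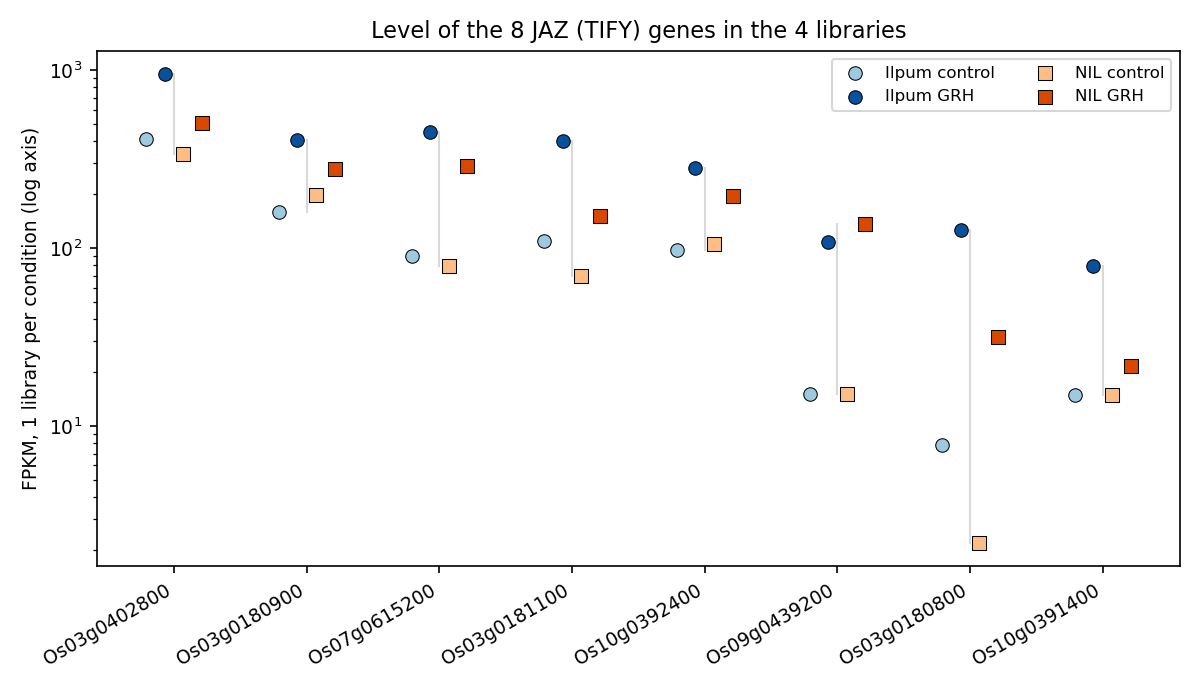
FPKM (log axis) of each JAZ gene in the 4 libraries, ordered by mean level; circles are Ilpum and squares NIL, pale symbols the control and dark symbols GRH, and the grey line spans the lowest to the highest library. Both GRH symbols lie above their own control for all 8 genes, and Os03g0180800 covers the widest range, 2.21 to 127 FPKM.

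Taken over the list, all 8 JAZ genes had a higher level with GRH than without it in both lines. Because the list was chosen with earlier results of these data known, the shares of other genes given here are a description and no test. Of the 4036 genes at least as abundant as the least abundant JAZ gene (mean 32.6 FPKM), 47.5% were higher in Ilpum, 58.1% in NIL and 36.5% in both. By 4-fold or more, 4 of 8 were higher in Ilpum (Os03g0180800, Os09g0439200, Os10g0391400 and Os07g0615200) and 2 of 8 in NIL (Os03g0180800 and Os09g0439200), and 0 were as much lower (3.17% of the abundant genes in Ilpum and 1.61% in NIL). A level higher by 4-fold or more was found in 5.13% of all 37849 genes in Ilpum and 2.51% in NIL, in 9.99% and 4.74% of the 18575 genes at a mean of 1 FPKM or more, and in 5.33% and 4.26% of the 4036 abundant genes. The median response of the JAZ genes was 2.08 in Ilpum and 1.0 in NIL, against −0.10 and −0.06 over the 18575 genes. The interval lay above 0 for 8 JAZ genes in Ilpum and 7 in NIL, as it did for 33.0% and 40.4% of the abundant genes. Halving all reads, to allow for counting both ends of a fragment, left these counts at 8 and 7.

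**Figure D2:**
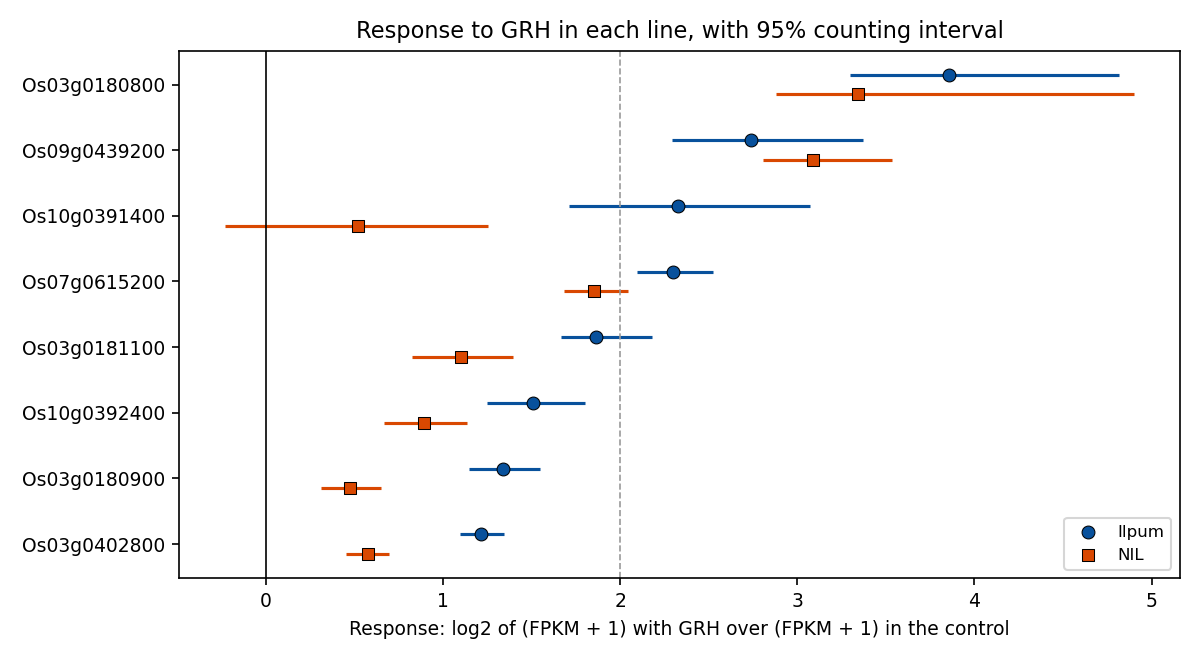
Response of each JAZ gene in Ilpum (circles) and NIL (squares), as log2 of (FPKM + 1) with GRH over control; lines are 95% counting intervals of the ratio of reads, and the dashed line marks a 4-fold difference. The circle lies to the right of the square for 7 of 8 genes, and the NIL interval of Os10g0391400 (−0.23 to 1.25) is the one that crosses 0.

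The response of the NIL was smaller than that of Ilpum for 7 of 8 JAZ genes, with a median difference of −0.63 on the log2 scale, where 43.6% of the abundant genes had a smaller response in NIL. The interval of the difference lay below 0 for 6 of 8 JAZ genes and for 21.4% of 3982 abundant genes with reads in every library. The difference was −1.81 (−2.87 to −0.82) for Os10g0391400, −0.86 (−1.13 to −0.60) for Os03g0180900 and −0.76 (−1.20 to −0.42) for Os03g0181100. It was −0.64 (−0.82 to −0.47) for Os03g0402800, −0.62 (−0.98 to −0.26) for Os10g0392400 and −0.45 (−0.73 to −0.16) for Os07g0615200. For Os03g0180800 it was −0.51 (−1.45 to 1.14), and for Os09g0439200 it was 0.35 (−0.32 to 1.0), so the direction of these 2 could not be told at this depth. The difference changed with the exon or transcript that was measured, as described further on. By the first exon its interval included 0 for Os03g0180900, Os10g0392400 and Os03g0402800, and the difference was 0.83 (0.16 to 1.56) for Os07g0615200. By the last exon the interval lay below 0 for each of them. The most abundant transcript of Os03g0181100 gave −0.15. Os10g0391400 has a single exon and transcript, so no such comparison could be made for it. Intervals of the difference were not computed with reads halved.

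Without GRH the lines were close. Between the controls 0 of 8 JAZ genes were 4-fold apart (1.21% of the abundant genes were that much higher in NIL and 1.11% lower), and Os03g0180800 was the only one more than 2-fold apart, at −1.46 (−3.02 to −0.70) in NIL relative to Ilpum. The interval lay above 0 for 1 gene, Os03g0180900 with 0.33 (0.17 to 0.50), and below 0 for 3 genes, while it lay above 0 for 31.8% and below 0 for 38.2% of the abundant genes. With GRH, 7 of 8 were lower in NIL than in Ilpum (47.6% of the abundant genes were lower) and 0 were 4-fold apart (4.88% higher and 2.95% lower). The furthest apart were Os03g0180800 at −1.97 (−2.56 to −1.48), Os10g0391400 at −1.81 (−2.64 to −1.15) and Os03g0181100 at −1.40 (−1.74 to −1.18). Os09g0439200 was 0.34 higher in NIL GRH (0.01 to 0.68), and with reads halved that interval was −0.13 to 0.83. This order depended on the exon. Coverage of the last exon, on the FPKM scale, was 162 in Ilpum GRH against 139 in NIL GRH, while the exons before it were higher in NIL GRH. These comparisons use the same 4 libraries as the responses and are no independent check of them.

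Summed over the 8 genes, JAZ transcripts made up 902 FPKM in Ilpum without GRH and 2791 FPKM with it, a ratio of 3.09. In NIL they made up 826 and 1610 FPKM, a ratio of 1.95. Other TIFY or ZIM genes with reads and Os04g0653000, described further on, are not in this sum. The pool was less dominated by its leading gene with GRH than without it: the share of Os03g0402800 was 45.3% in the Ilpum control and 34.0% under infestation, and for NIL 41.1% and 31.4%. Os07g0615200 made up 10.01% and 16.03% in Ilpum, and 9.6% and 17.9% in NIL. Os09g0439200 made up 8.49% of the pool in NIL GRH and between 1.69% and 3.85% in the other libraries. The span from the lowest to the highest JAZ gene was 52.03-fold in Ilpum without GRH and 12.02-fold with it, and 153-fold and 23.3-fold in NIL.

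**Figure D3:**
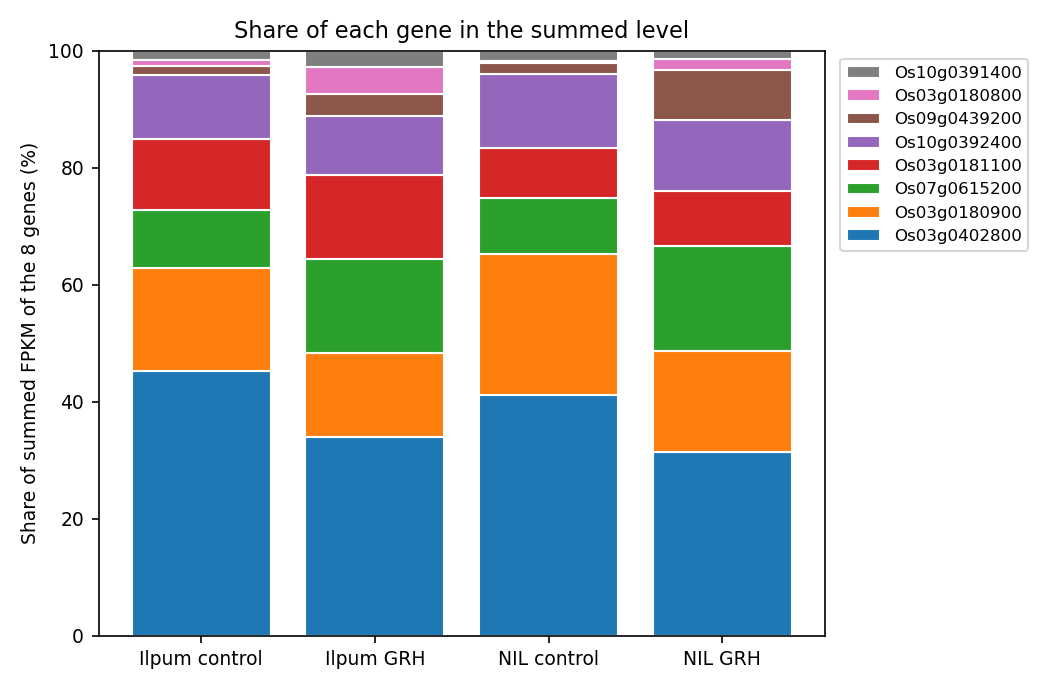
Share of each JAZ gene (%) in the summed FPKM of the 8 genes, with 1 bar per library and the genes stacked by mean level from the bottom. The bottom segment, Os03g0402800, takes 45.3% and 41.1% of the controls and 34.0% and 31.4% of the GRH libraries.

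Several neighbours in the order of levels did not differ beyond counting error. In Ilpum control Os03g0181100, Os10g0392400 and Os07g0615200 followed each other at ratios of 1.11 (0.91 to 1.36) and 1.08 (0.90 to 1.31), and then came a gap of 5.93-fold (4.24 to 8.49) down to Os09g0439200. In NIL control the gap above Os09g0439200 was 4.6-fold (3.64 to 5.86). In both GRH libraries Os07g0615200 and Os03g0180900 were alike, at ratios of 1.11 (0.98 to 1.26) in Ilpum, against 1.04 (0.90 to 1.19) in NIL. In NIL GRH Os09g0439200 was no longer apart from Os03g0181100 above it, which exceeded it 1.10-fold (0.89 to 1.37). It was 4.32-fold (3.06 to 6.23) above Os03g0180800.

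The deposited coverage of single exons showed that the difference between the lines was not the same along the genes. It was computed on the FPKM scale with 1 added, for the 5 JAZ genes with several exons. In Os07g0615200 the response of exon 1 was 1.26 (0.73 to 1.78) in Ilpum, against 2.09 (1.66 to 2.57) in NIL, so that it was larger in NIL by 0.83 (0.16 to 1.56). In exon 5, the last, it was 3.37 (2.99 to 3.79) in Ilpum, against 1.5 (1.2 to 1.81) in NIL, smaller in NIL with a difference of −1.87 (−2.38 to −1.37). From exon 1 to exon 5 the Ilpum values were 1.26, 1.55, 1.77, 2.29 and 3.37, and the NIL values were 2.09, 2.26, 2.0, 1.87 and 1.5. By these values the line with the larger response depended on the exon in this gene. Exon 1 rested on 63, 65, 84 and 85 read equivalents. Exon intervals were not computed with reads halved, so whether that of exon 1 would still exclude 0 is not known.

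In 3 other JAZ genes the lines differed in the last exon and not beyond counting error in the first. For Os03g0180900 the difference between the responses was −0.23 (−0.66 to 0.20) in the first exon and −1.45 (−1.87 to −1.05) in the last. For Os10g0392400 it was −0.10 (−0.58 to 0.37) and −1.39 (−2.0 to −0.81). For Os03g0402800 it was −0.04 (−0.48 to 0.40) and −0.92 (−1.23 to −0.60). Responses of first exons were positive in both lines for each of these genes, although that of Os03g0402800 was only 0.35 (0.04 to 0.66) in Ilpum, against 0.31 (−0.0009 to 0.61) in NIL.

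Exon 1 of Os09g0439200, 250 bp long, was listed at 0 coverage in both Ilpum libraries, where the whole gene had 40 and 122 reads. In NIL the same exon had coverage worth 4.37 reads of 94 in the control and 9.23 of 197 with GRH. Its last exon had like responses in the lines, 2.91 (2.31 to 3.70) in Ilpum, against 2.93 (2.49 to 3.54) in NIL.

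A shift of coverage along genes was also found outside the JAZ genes. Over 2347 genes with 1 transcript, several exons and a mean of at least 100 reads, the median log2 ratio of last to first exon was 0.03 in Ilpum without GRH and 0.4 with it, and 0.38 and 0.27 in NIL. The response of the last exon exceeded that of the first in 60.0% of them in Ilpum and 46.3% in NIL. The response in NIL was smaller than in Ilpum in 38.1% of these genes by the first exon and in 49.9% by the last. The part of this shift in the smaller NIL responses of the JAZ genes was not tested.

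**Figure D4:**
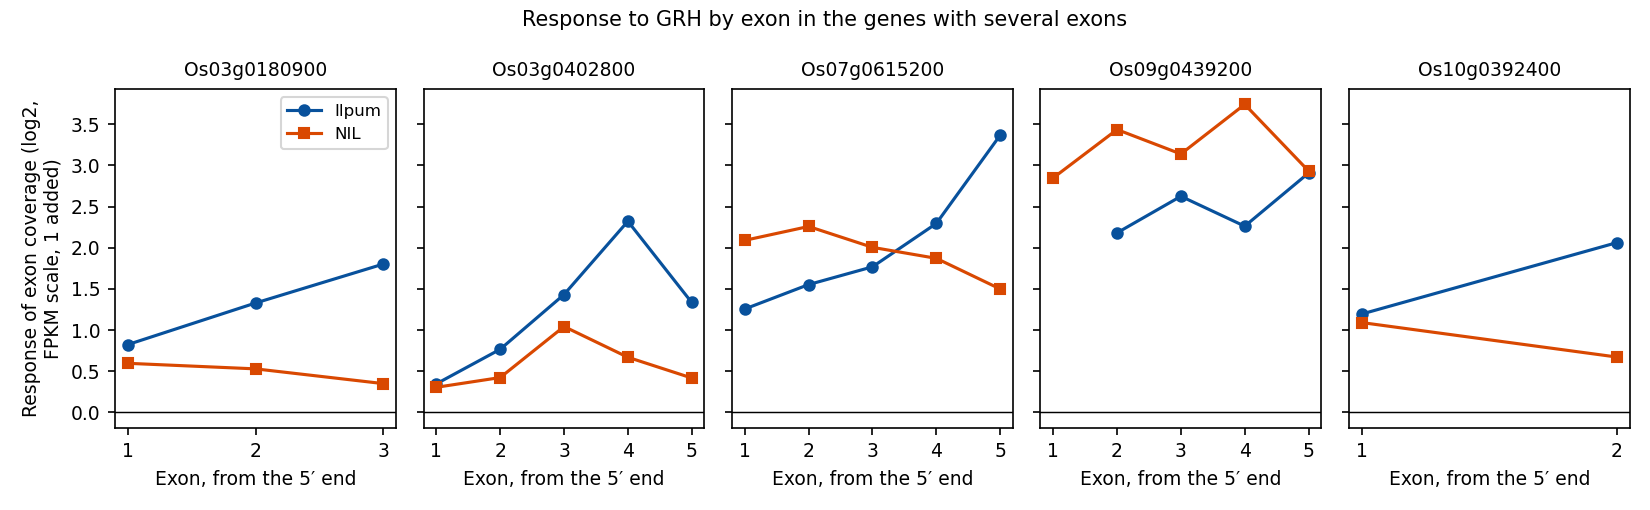
Response to GRH of the coverage of each exon (log2, FPKM scale with 1 added) in Ilpum (circles) and NIL (squares) for the 5 JAZ genes with several exons, numbered from the 5′ end; exon 1 of Os09g0439200 has no Ilpum point because both Ilpum libraries are listed at 0. The lines cross in Os07g0615200, and the gap between them is wider in the last exon than in the first for Os03g0180900, Os10g0392400 and Os03g0402800.

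Os03g0181100 differed between the libraries in its transcripts. Os03t0181100-01, the longer of its pair at 937 bp, was given 35.8% of the level of the gene in Ilpum GRH (128 reads) but only 2.17% in Ilpum control (5 reads), and 1.47% and 0.73% in NIL without and with GRH (6 and 2 reads). Os03t0181100-02, which is 841 bp long and lies within the longer transcript, was at 107, 256, 68.8 and 149.7 FPKM. Its response was 1.25 in Ilpum and 1.11 in NIL, a difference of −0.15. Nearly all of the sequence is shared by the transcripts, so the split rests on the ends alone.

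The files describe 8 further genes as TIFY or ZIM proteins, of which 4 had a mean of at least 1 FPKM and 1 exceeded 4-fold with GRH in each line. That gene was Os04g0395800, at 1.11, 58.1, 1.02 and 42.2 FPKM from 3, 52, 5 and 48 reads. Its response was 4.81 (3.70 to 7.65) in Ilpum, against 4.42 (4.04 to 7.05) in NIL, from few control reads. Os09g0401300 was at 74.9, 155, 63.9 and 88.7 FPKM, with a response of 1.04 (0.85 to 1.34) in Ilpum, against 0.47 (0.24 to 0.72) in NIL. Os08g0428400 was at 25.3, 21.02, 11.04 and 31.5 FPKM, with a response of −0.26 (−0.76 to 0.39) in Ilpum, against 1.43 (1.0 to 1.94) in NIL. Os03g0181600 had 11, 0, 27 and 9 reads. Of the other 4, Os02g0732400, Os03g0396500 and Os10g0391801 had 0 reads in every library and Os07g0153000 had 3 reads, in NIL control. Os04g0653000, described as a repressor of jasmonic acid signalling and added after its values were seen, was at 44.6, 68.1, 35.9 and 85.1 FPKM. Its response was 0.60 (0.17 to 1.05) in Ilpum, against 1.22 (0.91 to 1.58) in NIL, so the value was the larger in NIL. The interval of that difference was not computed.

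The genes of jasmonate perception showed little difference with GRH. The COI1 receptor genes Os01g0853400 and Os05g0449500 and the related Os03g0265500 had responses between −0.20 and 0.07 in Ilpum and between 0.02 and 0.28 in NIL. Os10g0575000, which encodes the JAZ target MYC2, was at 139, 329.9, 71.2 and 135 FPKM from 803, 828, 977 and 432 reads. Its response was 1.24 (1.11 to 1.39) in Ilpum, against 0.91 (0.76 to 1.09) in NIL. The summed level of the 8 listed JAZ genes was 6.51, 8.46, 11.6 and 11.96 times that of MYC2. Of 6 genes on the list of perception and signalling, 1 exceeded 4-fold with GRH in Ilpum and 0 did in NIL, where 9.99% and 4.74% of the genes at a mean of 1 FPKM or more did. This was Os11g0684000, listed as the rice gene JAMYB and described as similar to MYB21. Its response was 2.01 (1.68 to 2.42) in Ilpum, against 1.34 (1.13 to 1.58) in NIL.

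Of 11 genes on the list of jasmonate synthesis and turnover, 6 exceeded 4-fold with GRH in Ilpum and 3 did in NIL, against the same 9.99% and 4.74%, and 0 were as much lower. Of the 6 in Ilpum, 2 had 0 reads in the control, namely Os02g0218700 with 20 reads under GRH and Os03g0225900 with 9. The size of their responses depends on the pseudocount. Without a pseudocount, the lower ends of their intervals were 3.51 and 2.19, and 2.37 and 1.08 with reads halved. Os03g0767000, an allene oxide synthase, which makes the first dedicated intermediate of jasmonate synthesis, was at 18.8, 202, 7.13 and 64.9 FPKM from 83, 385, 75 and 159 reads. Its response was 3.36 (3.08 to 3.78) in Ilpum, against 3.02 (2.78 to 3.60) in NIL. Os02g0218700, described as an allene oxide synthase and also as a fatty acid hydroperoxide lyase, had 0, 20, 148 and 259 reads. It is listed at 0 in Ilpum control, so no fold is given for Ilpum. In NIL its response was 2.83 (2.61 to 3.21). The cytochrome P450 genes Os11g0151400, Os12g0150200 and Os05g0382500, listed for turnover, exceeded 4-fold in Ilpum alone. Their responses were 2.37, 3.03 and 2.04 in Ilpum, the last from 9 and 20 reads, against 1.62, 1.37 and −0.43 in NIL. The allene oxide cyclase gene Os03g0438100 exceeded 4-fold in NIL alone, at 2.34 against 1.69 in Ilpum. Reads could be shared among related copies of such genes, JAZ genes included, since the treatment of reads with several matches is not given in the sources used here.

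**Figure D5:**
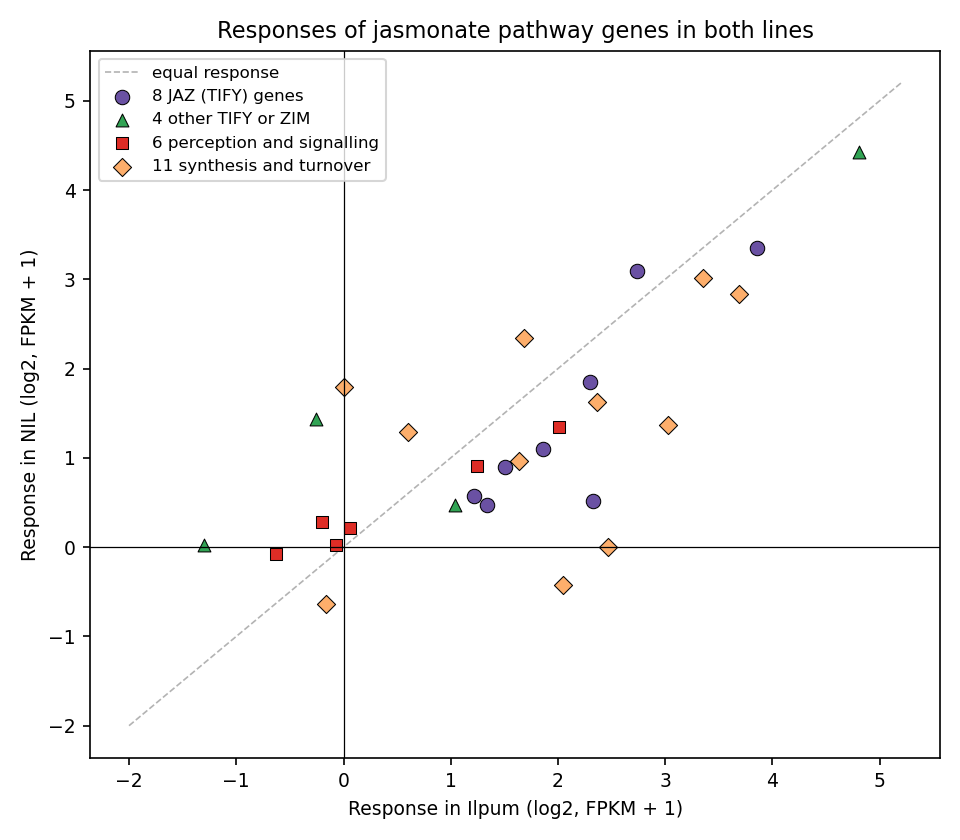
Response in NIL against response in Ilpum (log2, FPKM + 1) for the 8 JAZ genes and for listed jasmonate genes at a mean of 1 FPKM or more, with the dashed line at equal responses. The JAZ genes lie between 1.21 and 3.86 in Ilpum and between 0.48 and 3.35 in NIL, all above 0 on both axes, and Os09g0439200 is the one above the line.

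The neighbours of the clustered JAZ genes did not share their pattern throughout. On chromosome 3, of 3 annotated genes on each side, Os03g0181500, a fatty acid elongase gene, had responses of 2.06 in Ilpum and 0.75 in NIL from 44, 44, 58 and 24 reads, and Os03g0180500 had −0.70 and −0.09. On chromosome 10, Os10g0391500, between the JAZ genes, had 0.86 in Ilpum and −1.94 in NIL from 41, 34, 154 and 10 reads, and Os10g0391200, an F-box gene, had −2.42 and −0.26.

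The genes most like the JAZ genes in their profile over the 4 libraries were sought among 11048 genes with at least 100 reads in all, by the distance between centred log2(FPKM + 1) profiles. The closest was Os01g0926600, similar to a pectin-glucuronyltransferase, at a distance of 0.14 and at 5.72, 30.9, 5.04 and 14.05 FPKM. It was followed by the glycosyltransferase gene Os10g0437000 at 0.14, the peroxidase gene Os01g0962700 at 0.17, Os02g0809100, which has no described function, at 0.18 and the carboxypeptidase-like Os02g0634700 at 0.21. The 8 JAZ genes themselves lay 0.34 (Os07g0615200) to 2.11 (Os03g0180800) from their mean profile, so these genes were closer to it than any single JAZ gene was. With 4 values per profile this is a description of these libraries.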

How the data were processed

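RNA-seq values of 4 leaf libraries, 1 per condition, were used as deposited; duplicate leaf samples are described in the methods of the study, and whether they were pooled is not given in the sources used here. Per the file headers, the authors ran StringTie 1.3.4d in stranded mode on HISAT alignments to the IRGSP-1.0 genome with the RAP-DB transcripts (44643 transcripts of 37849 genes). The labels also list Trimmomatic. The methods of the study name Trinity, CD-HIT-EST and edgeR, which the headers do not. FPKM and TPM were estimated by the authors with StringTie. The coverage signal of each exon and transcript was taken from the deposited files. The estimated count of reads, as deposited by the authors, is what the coverage and length of a transcript give for reads of 101 bases (within 1 read for 99.98% of 54344 values of genes with 1 transcript). Gene values are sums over transcripts.

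Responses were computed from FPKM with 1 added. Exact binomial (Clopper-Pearson) intervals of read ratios and exact conditional intervals of ratios of ratios, at 95%, were scaled by the FPKM that a unit of coverage stood for in each library, and summed reads were used for genes with 2 transcripts. A t-test, which the study used on quantile-normalized FPKM, needs replicates and was not run. Exon values are coverage scaled to FPKM, with read equivalents rounded to whole reads for intervals. Descriptions were searched for TIFY or ZIM as whole words. The members and lists were chosen with earlier results of these data known. The genes named were all members, other TIFY genes at a mean of at least 1 FPKM, COI1 and MYC2 genes, listed jasmonate genes at least 4-fold changed in both lines, and the 5 nearest profiles. Further genes were named where they made up a count of 5 or fewer, lay beside a cluster or were similar to MYB21. Genes of jasmonate synthesis and turnover that were 4-fold higher in 1 line were named too. These further genes were chosen after their values were seen.

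Alternatives were quantile-normalized FPKM, CPM of the counts with TMM factors (edgeR 4.0.16), TPM, pseudocounts of 0.1 and 5 FPKM, a filter at 1 FPKM, a 2-fold threshold and the most abundant transcript. The comparison with genes of similar abundance, reads halved, values relative to the median gene, and first or last exons were added after the data were seen. The steps were checked on simulated counts. Of the 8 identifiers, 0 matched the RefSeq gene table at hand, which is of another assembly, so no gene names were taken from it. Python 3.11.15, scipy 1.17.1 and R 4.3.3 were used.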

Additional observations from a re-analysis of the deposited data

Results flagged for a closer look

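Among the TIFY and ZIM genes at a mean of 1 FPKM or more, 2 genes outside the 8 JAZ genes had responses of opposite sign in the lines. Os08g0428400 had a response of −0.26 in Ilpum, where its reads were 96 without and 37 with GRH, and 1.43 in NIL, where they were 100 and 65. Os03g0181600 had a response of −1.30 in Ilpum, with 11 and 0 reads, and 0.0191 in NIL, with 27 and 9 reads. With 1 library per condition the difference between the lines was not tested for either gene. The sign was undetermined in 1 line for each, since the counting interval included 0 for Os08g0428400 in Ilpum (−0.76 to 0.39) and for Os03g0181600 in NIL (−0.76 to 1.65). The Ilpum value of Os03g0181600 is set against 0 reads with GRH and depends on the pseudocount. The counting interval of the difference was 0.90 to 2.40 for Os08g0428400 and could not be given for Os03g0181600.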

How the results depend on the processing

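All 8 JAZ genes kept a positive response in both lines under quantile normalization, TMM-scaled counts, TPM, pseudocounts of 0.1 and 5 FPKM, the most abundant transcript and values relative to the median gene. The lowest response was 1.15 in Ilpum and 0.26 in NIL, and 7 of 8 responses were larger in Ilpum under each of these. By the first exon that order was reversed for Os07g0615200, with a difference of 0.83 (0.16 to 1.56, reads not halved). For Os03g0180900, Os10g0392400 and Os03g0402800 the first exon gave −0.23, −0.10 and −0.04, with intervals that included 0. In Os03g0181100 the most abundant transcript gave −0.15 in place of −0.76. The cause was not tested for any of these genes. With a 2-fold threshold, 8 genes were higher in Ilpum and 4 in NIL, 1 was apart between the controls and 3 between the GRH libraries. Of the 4036 abundant genes, 15.7% were 2-fold higher with GRH in Ilpum and 13.8% in NIL. Between the controls 7.38% of them were 2-fold higher in NIL and 8.5% lower, and between the GRH libraries 17.7% and 13.8%. With a pseudocount of 0.1 FPKM, 1 JAZ gene was 4-fold apart between the GRH libraries. Of the perception and signalling genes, 0 were 4-fold higher in Ilpum under quantile normalization and under TMM-scaled counts, where it was 1 with FPKM. The other counts of 4-fold changes stayed within 1.5 times under the alternatives run. No paired analysis was possible because each condition has 1 library, and for the same reason no replicate could be left out. Depth limits Os03g0180800 and Os10g0391400 most, with 12 to 28 reads in at least 1 library of each line.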
